A study of Mus musculus with 3 samples.

Results

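Stroma5 was 1 of 10 clusters, Stroma1 to Stroma10, in which the authors placed the non-immune stromal cells of mouse melanomas. Its members were the cells that carry this name in the deposited cell table, 919 of 12670 cells and 919 of the 7968 stroma cells. The untreated tumor held 165 of them, the progressed tumor 754 and the regressed tumor 0. Stroma5 was compared with the cells of the other 9 Stroma clusters of the same tumor, called the other stroma here, and the progressed tumor was compared with the untreated one.

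The 3 melanomas were an untreated one, one taken after it had shrunk on vemurafenib (regressed) and one that grew despite the drug (progressed), and messenger RNA of their single cells was sequenced from the 3' end in droplets. Vemurafenib inhibits the mutant Braf kinase. Per the study's methods, the tumors arose on the flank skin of C57BL/6J mice with a Cre-inducible oncogenic Braf allele and a tamoxifen-activated Cre driven by the tyrosinase promoter (Tyr.CreER), some of them with an inducible tdTomato reporter as well. Cre was thus directed to the pigment cell lineage, and all 3 tumors shared these alleles and the tamoxifen. The origin of the Stroma5 cells was not tested. Because each group was 1 tumor, no test between groups was possible and no p-value is given. Intervals are 95% intervals for counting error only, which leave out the variation between mice, dissociations and libraries.

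Fibroblasts build the connective tissue of the skin. They secrete collagens, proteoglycans and glycoproteins of the extracellular matrix, the enzymes that crosslink or cut it, and chemokines that attract leukocytes. In melanoma they lie around and between the tumor cells, and fibroblasts of the same tissue can differ in the matrix they make and in the signals they send.

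Stroma5 cells made up 165 of 2628 stroma cells in the untreated tumor, which is 6.28% (exact binomial interval 5.38 to 7.28%). In the progressed tumor they were 754 of 3422, or 22.0% (20.7 to 23.5%). None of the 1918 stroma cells of the regressed tumor carried the name, which, taking 3 cells as the limit of a count of 0, allows a share of up to 0.156% (the exact interval reaches 0.192%). Of all cells the shares were 4.03%, 15.6% and 0, the last allowing up to 0.0805%. The stroma of the regressed tumor lay almost wholly in other clusters, 1537 cells in Stroma10 and 310 in Stroma9, and without Stroma10 its 381 remaining cells allow a Stroma5 share of up to 0.787%. The clusters were made from the same expression values, so a shift of expression and a loss of cells cannot be told apart in these shares.

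**Figure D1:**
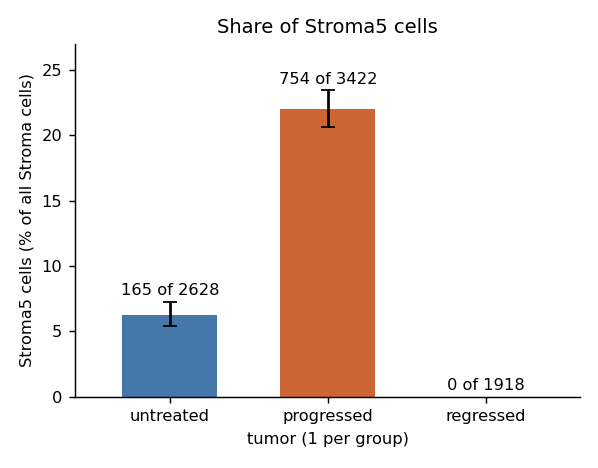
Bars give Stroma5 cells as a percentage of all Stroma cells (vertical axis) in each tumor (horizontal axis), with exact binomial 95% intervals and the cell numbers above. The share was 6.28% in the untreated and 22.0% in the progressed tumor, with 0 of 1918 cells in the regressed tumor.

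Depth differed between the populations. The median Stroma5 cell held 7603 UMIs (unique molecular identifiers, each counting 1 captured RNA molecule) in the untreated and 6868 in the progressed tumor, against 4535 and 3950 in the other stroma. Summed over cells, Stroma5 gave 1318090 and 5534279 UMIs. Levels below are UMIs per 1000000 UMIs of the population (CPM), so depth does not scale them, but shares of cells with a UMI do depend on it and are also given after every cell was thinned to 1000 UMIs. A kit that reads transcript ends gives about 1 tag per molecule whatever the transcript's length, and levels are compared between cell groups rather than between genes. The makeup of the other stroma also changed between the tumors. It was led by Stroma2 (1144 cells), Stroma4 (599) and Stroma1 (472) in the untreated tumor and by Stroma6 (1255), Stroma4 (826) and Stroma7 (444) in the progressed one.

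The fibroblast label was checked first. The summed level of 8 fibroblast genes was 51402 CPM in untreated and 49221 CPM in progressed Stroma5, near the 47398 and 47190 CPM of the other stroma. The platelet-derived growth factor receptor gene Pdgfra stood at 257 and 224 CPM in Stroma5, and the fibroblast activation protein gene Fap at 83.5 and 64.3 CPM. Thy1, a surface protein of many fibroblasts, was the exception, with 320 and 238 CPM in Stroma5 against 1249 and 1127 CPM in the other stroma. Of the lists of other cell types, some were below the other stroma. The 8 endothelial genes summed to 93.3 and 107 CPM, the 8 pericyte genes to 139 and 159 CPM and the 8 melanocyte genes to 8.35 and 20.1 CPM, each below its sum in the other stroma, and Tyr and Tyrp1 had no UMI in any Stroma5 cell. Other lists lay near it. The 8 keratinocyte genes summed to 189 and 328 CPM against 226 and 314 CPM, and the 8 immune genes to 354 and 32.2 CPM against 373 and 37.0 CPM, where S100a8 made up 326 CPM of the untreated sum and the pan-leukocyte gene Ptprc 3.04 and 1.45 CPM. The cartilage and Schwann cell lists were higher in Stroma5 and are described with their genes further on. The defining fibroblast genes were thus present in Stroma5, with low Thy1.

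All 6 marker genes were higher in Stroma5 than in the other stroma in both tumors, although Ptx3 was nearly level in the untreated one. Col9a2, an alpha chain of the cartilage collagen type IX, stood at 125 CPM in untreated and 143 CPM in progressed Stroma5, against 2.67 and 19.3 CPM in the other stroma (log2 ratios 5.55 and 2.89). Col26a1, which encodes a small collagen-like protein, stood at 311 and 135 CPM against 16.5 and 11.9 CPM (4.24 and 3.50). Reln, the secreted glycoprotein reelin known for guiding neuron layering, stood at 200 and 226 CPM against 12.9 and 34.8 CPM (3.96 and 2.70). Cluster and markers were both drawn from these cells, so these ratios describe the cluster and support nothing further.

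Scube1, a secreted and membrane-bound protein with EGF-like repeats, was at 33.4 CPM in untreated and 76.4 CPM in progressed Stroma5, against 3.76 and 7.46 CPM in the other stroma. Stra6, the receptor that takes up retinol from its carrier protein, was at 112 and 266 CPM against 22.7 and 51.8 CPM. Ptx3, a pentraxin that is secreted in inflammation and can bind complement factors, was at 60.7 and 400 CPM against 44.6 and 60.2 CPM. The log2 ratio of Ptx3 was thus 0.44 (0.09 to 0.78) in the untreated and 2.73 (2.61 to 2.85) in the progressed tumor. Stroma5 had the highest level among the 7 Stroma clusters of at least 20 cells for 5 of the 6 markers in either tumor. The exception was Ptx3, which was higher in Stroma8 in both tumors (435 and 473 CPM) and in Stroma1 of the untreated tumor (112 CPM).

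Cluster by cluster, Stroma7 came nearest in the progressed tumor. Its Reln level was 188 CPM and its Col9a2 level 110 CPM, so that Stroma5 exceeded it by only 0.27 and 0.38 on the log2 scale. Stroma7 held less Col26a1 (58.8 CPM), Scube1 (25.3 CPM), Ptx3 (137 CPM) and Stra6 (46.7 CPM). For Stra6 the next cluster was Stroma4, at 73.4 CPM in the untreated and 134 CPM in the progressed tumor. In the regressed tumor, which had no Stroma5 cell, Stroma10 held 52.9 CPM of Reln and 41.6 CPM of Stra6 but 3.91 CPM of Col9a2.

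**Figure D2:**
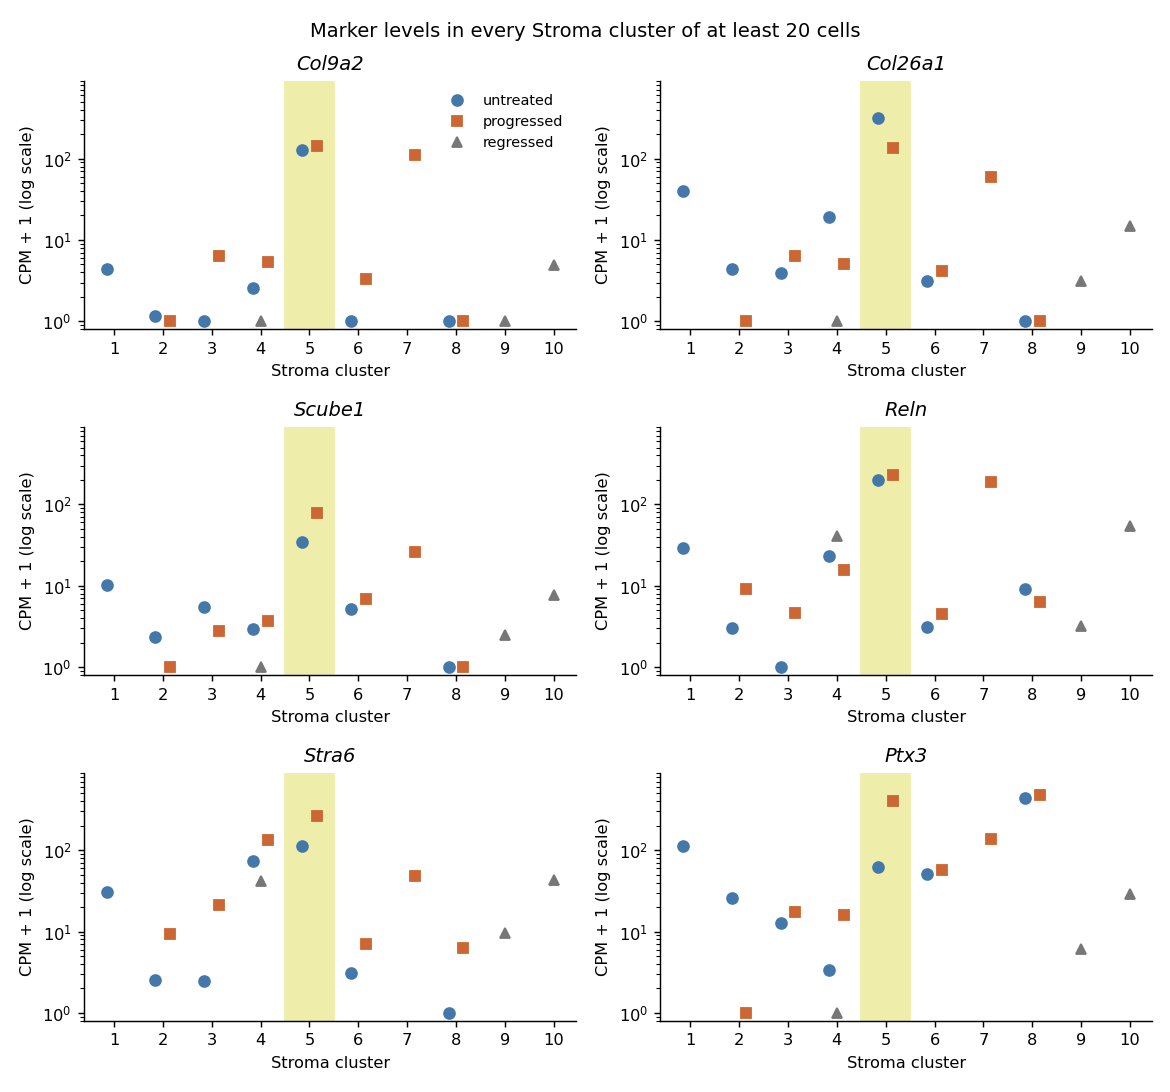
Each panel gives 1 marker's level (CPM + 1, log axis) in every Stroma cluster of at least 20 cells (horizontal axis), with circles for the untreated, squares for the progressed and triangles for the regressed tumor, and Stroma5 shaded. Stroma5 lies highest for all markers but Ptx3, which is higher in Stroma8, and progressed Stroma7 lies close for Col9a2 and Reln.

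At the level of single cells the markers were patchy. Col26a1 had a UMI in 72.1% of untreated and 45.6% of progressed Stroma5 cells, against 5.20% and 4.01% of the other stroma. Reln was found in 59.4% and 63.9% of Stroma5 cells, against 4.75% and 9.71%. Col9a2 was found in 37.0% and 40.3%, against 0.812% and 4.69%, and in 0.190% and 1.32% of immune cells, a class that should lack it. Ptx3 was found in 27.3% and 62.2% of Stroma5 cells (5.45% and 25.0% after thinning to 1000 UMIs). At least 3 of the 6 markers were seen in 77 of 165 untreated cells (46.7%) and in 473 of 754 progressed cells (62.7%). The same held for 1.26% and 2.999% of the other stroma. All 6 together were seen in 0 and 46 Stroma5 cells, and 9 and 26 Stroma5 cells showed none. After thinning, at least 2 markers were seen in 12.7% and 23.4% of Stroma5 cells, against 0.575% and 1.47% of the other stroma.

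Across all genes, a gene was counted as higher or lower when it had at least 20 UMIs over both groups, differed by at least 2-fold and had an interval that left out equality. In the untreated tumor 495 of 13531 genes were counted as higher in Stroma5 than in the other stroma (3.66%) and 1031 as lower (7.62%). In the progressed tumor 515 of 13644 were higher (3.77%) and 1201 lower (8.8%). Counts of higher and lower genes in the lists below are to be read beside these shares. With every cell thinned to 1000 UMIs the untreated counts were 357 and 405. Of the 13100 genes that could be assessed in both tumors, 245 were higher in both, 50.5% of the untreated and 57.5% of the progressed list, and 630 were lower in both, 62.1% and 55.8%. The median log2 ratio over all assessed genes was -0.06 in the untreated and -0.02 in the progressed tumor. A stricter comparison asked for 2-fold more than every other Stroma cluster of at least 20 cells. It left 92 genes in the untreated tumor, 46 in the progressed tumor and 17 in both, among them Col26a1, Scube1, Fbn2, Col8a1, Col2a1 and Ccnd1, which are named here after their values were seen.

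The genes named here are the 20 highest and 10 lowest relative to the other stroma by the smaller of both tumors' ratios, among genes of at least 50 CPM. Several of the highest were secreted signals or carriers. Bmp7, a bone morphogenetic protein, stood at 196 and 226 CPM in Stroma5 against 15.99 and 42.6 CPM in the other stroma. Enpp2, the secreted enzyme autotaxin that makes lysophosphatidic acid, stood at 481 and 837 CPM against 96.3 and 143 CPM. Ccl9, a chemokine, stood at 418 and 164 CPM against 83.6 and 17.5 CPM. The iron carrier gene Trf (transferrin) stood at 2281 and 2397 CPM against 431 and 464 CPM, although Stroma7 of the progressed tumor held 2470 CPM. The Trf locus overlaps a second annotated gene on the same strand, so its reads may be shared. Gcg, the glucagon precursor gene best known from pancreas and gut, was at 130 and 70.5 CPM against 20.8 and 9.46 CPM.

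Among the other highest genes were Shisa8 at 68.3 and 231 CPM against 2.74 and 21.6 CPM, and Anks1b, which encodes a scaffold protein known from synapses, at 116 and 99.9 CPM against 4.47 and 10.4 CPM. Gatm, the first enzyme of creatine synthesis, was at 64.5 and 81.3 CPM against 5.96 and 11.7 CPM. Ccnd1, which encodes the cell cycle protein cyclin D1, was at 464 and 392 CPM against 77.3 and 90.2 CPM. The proliferation gene Mki67 stood at 0.759 and 0.903 CPM in Stroma5, but the authors kept clusters of dividing cells apart, so the clustering itself leaves few such cells here. Nipal1, Xkr7, Clcn5 and Vstm2a completed the group, with log2 ratios from 2.11 to 3.85 over both tumors. Stroma5 was the highest of 7 clusters for 19 of the 20 genes in the untreated and for 18 of 20 in the progressed tumor.

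The 10 lowest genes included proteases, matrix proteins and a chemokine. Mmp3, the metalloproteinase stromelysin-1, stood at 9.86 and 15.2 CPM in Stroma5 against 426 and 569 CPM in the other stroma (log2 ratios -5.43 and -5.23). Adamts5, a protease that cuts aggrecan and versican, stood at 19.0 and 8.49 CPM against 372 and 143 CPM. Cxcl12, which draws leukocytes and stem cells that carry Cxcr4, stood at 73.6 and 24.4 CPM against 1534 and 581 CPM. Eln, the elastic fiber protein elastin, stood at 4.55 and 2.89 CPM against 118 and 83.6 CPM. Cilp, Spon1 and Dpt encode other matrix proteins, Clec3b encodes tetranectin, Gdf10 a member of the TGF-beta family and Fmo2 an oxidizing enzyme. Stroma5 was the lowest of 7 clusters for 8 of the 10 in the untreated and for 5 of 10 in the progressed tumor.

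**Figure D3:**
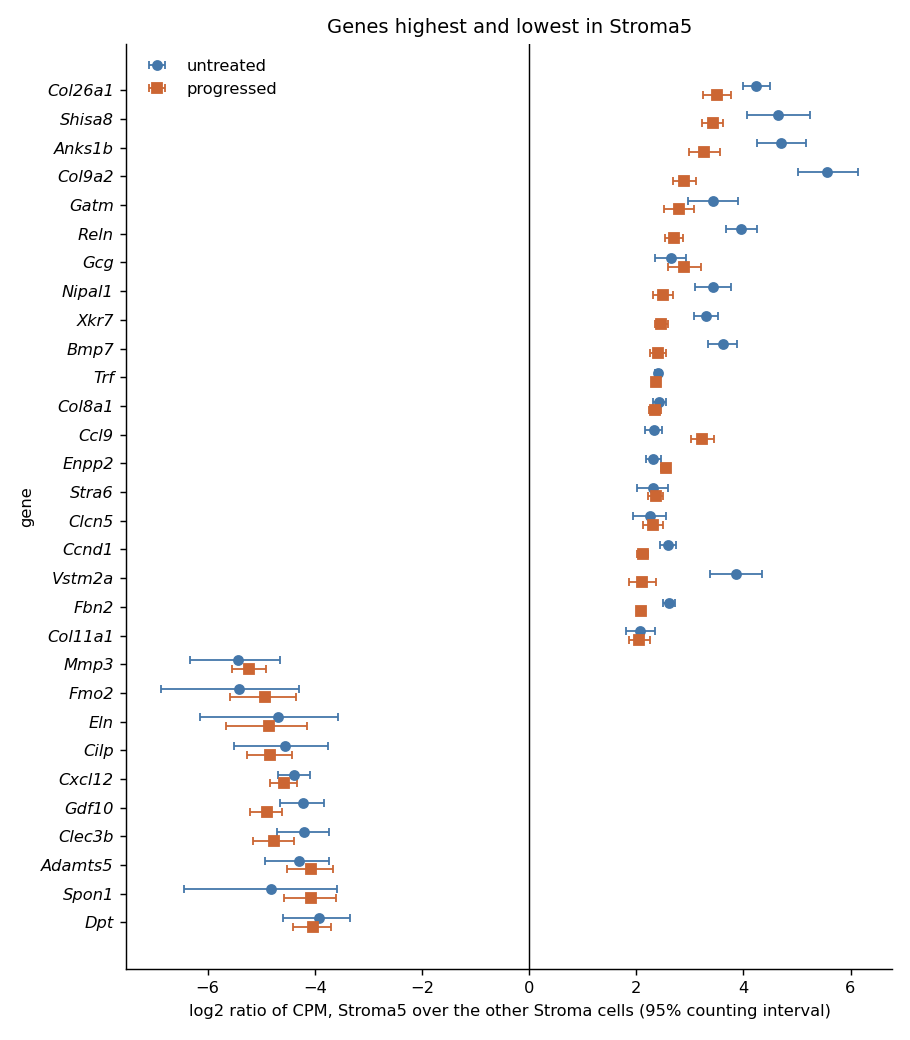
Points give the log2 ratio of CPM in Stroma5 over the other Stroma cells (horizontal axis) for the 20 highest and 10 lowest genes, circles for the untreated and squares for the progressed tumor, with 95% counting intervals. The ratios run from 2.06 to 5.55 for the high genes and from -3.93 to -5.43 for the low genes, and both tumors lie on the same side for each gene.

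Collagens differed by type and not as a class. The 10 fibrillar and beaded collagen genes summed to 37661 and 32112 CPM in Stroma5, close to the 33324 and 30955 CPM of the other stroma, with median log2 ratios of 0.15 and 0.10. Only Col11a1, a minor fibrillar chain known from cartilage, was counted as higher in either tumor, with 129 and 108 CPM against 30.6 and 26.0 CPM, and it was still higher in Stroma3. Col6a3, a chain of the beaded collagen type VI, was lower at 454 and 437 CPM against 945 and 1316 CPM. Among 13 assessed genes of other collagen types, 4 were higher in both tumors and 3 (untreated) and 5 (progressed) were lower. The 4 were Col8a1 and Col14a1, and the markers Col9a2 and Col26a1. Col8a1, a network-forming collagen, stood at 590 and 423 CPM against 109 and 82.9 CPM. Col14a1, which binds the surface of fibrils, stood at 481 and 683 CPM against 172 and 137 CPM. Basement membrane Col4a1 (490 and 465 against 1306 and 1389 CPM) and fibril-associated Col12a1 (12.9 and 17.0 against 107 and 76.9 CPM) were lower.

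Of the 15 assessed matrix glycoprotein genes, 6 and 5 were higher in the untreated and the progressed tumor and 6 were lower in each. Higher were Tgfbi (4088 and 4716 against 975 and 1385 CPM), fibronectin Fn1 (1711 and 1528 against 775 and 470 CPM), the microfibril protein Fbn2 (768 and 1013 against 126 and 238 CPM), versican Vcan and Reln. Lower were Eln, Cilp, tenascin Tnc at 6.07 and 5.24 CPM against 109 and 55.5 CPM, Thbs2, Fbln1 and Postn. Thbs1 (thrombospondin-1) was higher in the untreated tumor, at 436 against 211 CPM, and less far apart in the progressed tumor, at 590 against 522 CPM. The summed level of the list was 16808 and 16926 CPM against 12752 and 11066 CPM. Of 9 collagen crosslinking genes 0 were higher and 3 and 2 lower, including the lysyl oxidase gene Lox at 33.4 and 16.1 CPM against 79.0 and 57.0 CPM. Against progressed Stroma7 alone, 5 of 8 crosslinking genes were higher and 0 lower (summed 521 against 229 CPM). Against Stroma4, 3 of 8 were higher in the untreated and 1 of 8 in the progressed tumor, with 0 lower in either. Genes of myofibroblasts, the contractile fibroblasts of wounds, were mostly low against the other stroma. Acta2 was at 3.79 and 5.06 CPM against 41.6 and 60.0 CPM, and 5 of 7 genes were lower in each tumor, whereas Cthrc1 was higher at 134 and 65.2 CPM against 21.9 and 26.4 CPM. Against progressed Stroma7, 2 of 6 myofibroblast genes were higher and 0 lower. Against Stroma4, 1 of 5 was higher and 0 lower in the untreated tumor, and 1 of 6 higher and 3 lower in the progressed tumor.

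Innate defence genes were low as a group against the other stroma. Of 11 pentraxin and complement genes, 8 were lower in Stroma5 in each tumor, with median log2 ratios of -2.40 and -1.70 beside -0.06 and -0.02 over all genes. Factor B (Cfb) stood at 20.5 and 18.2 CPM against 356 and 136 CPM, and the C1 inhibitor gene Serping1 at 1086 and 1111 CPM against 3726 and 2289 CPM. Ptx3 was the only member counted as higher, and only in the progressed tumor. Of 12 interferon response genes 0 were higher and 9 and 10 were lower, with medians of -1.22 and -2.05. The interferon-induced GTPase Iigp1 stood at 2.28 and 6.14 CPM against 41.7 and 105 CPM. Of 9 antigen presentation genes 0 were higher and 3 and 7 lower. The class I gene H2-D1 stood at 149 and 204 CPM against 301 and 709 CPM. Low complement genes were not particular to Stroma5. Against progressed Stroma7 alone, 1 of 10 pentraxin and complement genes was higher and 1 lower (summed 1946 against 2206 CPM). Against Stroma4, 7 of 11 were lower in the untreated and 4 of 11 in the progressed tumor. The other 2 lists stayed low against Stroma7, with 9 of 12 interferon response and 6 of 9 antigen presentation genes lower.

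Chemokines were split. Ccl2, which recruits monocytes, stood at 875 and 1910 CPM in Stroma5 against 262 and 505 CPM in the other stroma, and Ccl11 (eotaxin), which recruits eosinophils, at 2548 and 3425 CPM against 754 and 1463 CPM. Cxcl1, which recruits neutrophils, stood at 1111 and 1348 CPM against 679 and 614 CPM. Cxcl12 and Cxcl14 were lower, the latter at 849 and 620 CPM against 3329 and 2186 CPM. Over the list 2 of 19 genes were higher and 6 lower in the untreated tumor, and 6 of 18 higher and 7 lower in the progressed tumor.

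Growth factor genes leaned low against the other stroma, where 7.62% and 8.8% of all genes were lower in Stroma5. Of 13 PDGF and FGF genes 0 were higher and 8 and 7 lower, among them Hgf (8.35 and 10.7 against 69.0 and 41.8 CPM) and Fgf7 (41.7 and 34.5 against 119 and 75.0 CPM), both mitogens for epithelium. Of 8 IGF axis genes 0 were higher and 4 and 3 lower. The binding protein gene Igfbp5 stood at 62.2 and 12.7 CPM against 452 and 112 CPM, whereas Igf1 itself differed less, at 594 and 533 CPM against 421 and 426 CPM. In the BMP and TGF-beta list Bmp7 was the only gene counted as higher, and Gdf10, Nbl1 (a secreted BMP inhibitor) and Fst (follistatin) were among the 4 and 6 lower of 14. Follistatin stood at 0.759 and 0.723 CPM against 28.4 and 23.6 CPM. Progressed Stroma7 shared the low levels. Against it 0 of 10 PDGF and FGF genes were higher or lower, and 3 of 7 IGF axis genes were higher and 0 lower. Against Stroma4, 4 of 9 PDGF and FGF genes were lower and 2 higher in the untreated tumor. In the progressed tumor 5 of 10 were lower and 1 higher.

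Other genes of the markers' pathways were read beside them. In the hedgehog list, where Scube proteins act on release of the ligand, Scube1 was high but the target genes Ptch1 (148 and 88.2 against 154 and 91.3 CPM) and Gli1 (58.4 and 41.6 against 55.6 and 54.0 CPM) lay close to the other stroma, and the coreceptor genes Gas1, Boc and Cdon were lower. Shh and Ihh had no UMI in Stroma5. In the reelin list the receptor gene Vldlr was at 37.2 and 26.6 CPM against 20.5 and 14.1 CPM, a difference under 2-fold, and the receptor gene Lrp8 and the adaptor gene Dab1 had no UMI. In the retinoid list 2 of 15 genes were higher and 4 lower in the untreated tumor and 2 of 14 higher and 5 lower in the progressed tumor. Aldh1a1, which makes retinoic acid, was among the lower genes at 4.55 and 1.63 CPM against 22.7 and 18.8 CPM.

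Transcription factor and signaling genes gave a mixed picture. Sox9, a regulator of cartilage and of several stem cell types, stood at 164 and 144 CPM against 60.4 and 45.3 CPM, and Meox1, a homeobox gene of the somite, at 504 and 495 CPM against 142 and 226 CPM. Prrx1 and Osr1, both mesenchymal regulators, were lower, at 95.6 and 82.6 against 410 and 230 CPM and at 13.7 and 12.7 against 134 and 99.5 CPM. Among 9 MAPK output genes 3 and 2 were higher and 0 lower. Dusp6, a phosphatase induced by ERK, stood at 300 and 323 CPM against 146 and 129 CPM, and the ETS factor Etv4 at 194 and 234 CPM against 57.1 and 107 CPM. Efnb2, Ncam1 and Robo1 were among the 4 of 17 and 4 of 15 guidance and adhesion genes that were higher, the guidance receptor gene Robo1 at 30.4 and 16.4 CPM against 6.35 and 7.22 CPM, while 7 and 8 were lower, including Nrp1 at 198 and 107 CPM against 595 and 457 CPM.

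Genes of cartilage and of nerve were present without the defining genes of either tissue. The 8 cartilage genes summed to 150 and 161 CPM against 4.23 and 22.6 CPM. The marker Col9a2 carried most of that sum. Col2a1 added 19.0 and 13.2 CPM against 0.862 and 1.08 CPM, and Acan, Matn3 and Snorc had no UMI. The 8 Schwann cell genes summed to 239 and 261 CPM against 94.4 and 104 CPM. S100b (173 and 156 CPM) and Cdh19 (29.6 and 37.0 CPM) carried most of that sum, whereas Sox10 (1.52 and 1.63 CPM), Mbp and Foxd3 were at or near 0. Neither list was particular to Stroma5 in the progressed tumor, where Stroma7 held 309 CPM of the Schwann and 116 CPM of the cartilage genes. Stroma4 held 162 and 101 CPM of the Schwann genes, but 2.72 and 6.27 CPM of the cartilage genes. In the list of perineurial and nerve fibroblasts Sox9 and Apod were the genes counted as higher. Of its 9 assessed genes 2 were lower in each tumor, and the median log2 ratios were -0.12 and -0.40. Apod, a lipid carrier of the lipocalin family, stood at 23893 and 41015 CPM against 6914 and 15656 CPM, but Stroma7 of the progressed tumor held 81669 CPM. Cd34, known from interstitial skin fibroblasts, stood at 765 and 728 CPM against 175 and 251 CPM.

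**Figure D4:**
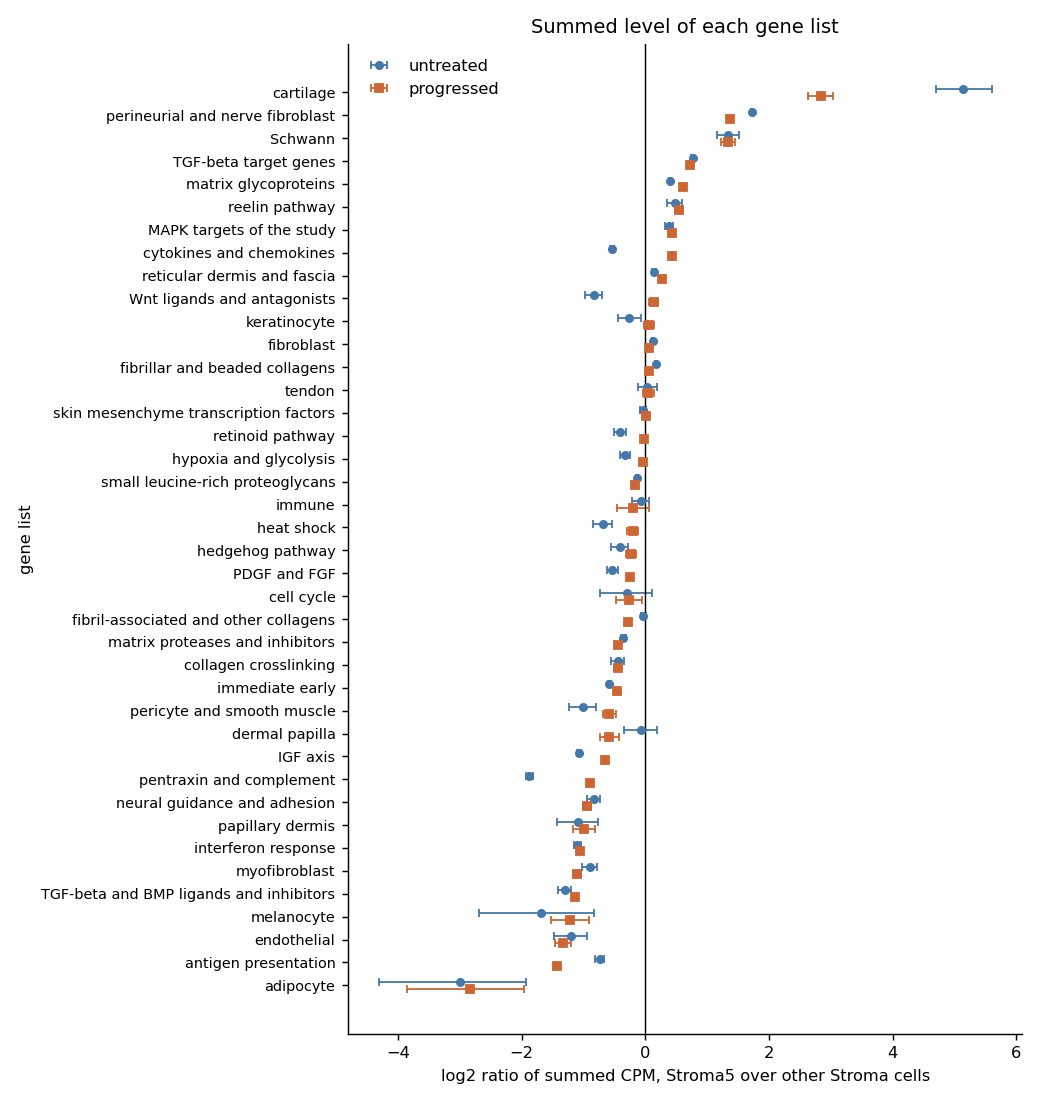
Points give the log2 ratio of the summed CPM of each gene list other than the 6 markers in Stroma5 over the other Stroma cells (horizontal axis; lists on the vertical axis; circles untreated, squares progressed, bars 95% counting intervals). In the progressed tumor the cartilage, nerve and Schwann lists lie highest and the adipocyte, antigen presentation and endothelial lists lowest of those drawn. The fibroblast and fibrillar collagen lists lie near 0. Apod alone makes up 23893 of 24520 CPM (untreated) and 41015 of 41524 CPM (progressed) of the nerve list in Stroma5. The marker Col9a2 makes up 125 of 150 CPM (untreated) and 143 of 161 CPM (progressed) of the cartilage list there.

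The nearest clusters were found from the correlation of log2(CPM + 10) over genes, a description over genes that share libraries and depth. Stroma4 was most like Stroma5 in the untreated tumor (r = 0.932), just ahead of Stroma1 (0.929). Counts of genes against Stroma1 alone are not given. Stroma4 and Stroma7 were level in the progressed tumor (both 0.955). Stroma5 of both tumors correlated at 0.972. Against Stroma4, 462 of 10867 genes were higher in Stroma5 (4.25%) and 804 lower (7.4%) in the untreated tumor, and 537 of 12333 were higher (4.35%) and 860 lower (6.97%) in the progressed tumor. Among those farthest apart, named after their values were seen, Cthrc1 was at 134 CPM in untreated Stroma5 against 2.72 CPM in Stroma4, and Trf at 2397 CPM in progressed Stroma5 against 114 CPM. Ptx3 stood at 400 CPM in progressed Stroma5 and at 14.99 CPM in Stroma4. The keratin gene Krt19 was at 0 and 0.361 CPM in Stroma5 and at 80.0 and 89.7 CPM in Stroma4.

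Against Stroma7, which was compared in the progressed tumor, where it had 444 cells, 784 of 11795 genes were higher in Stroma5 (6.65%) and 438 lower (3.71%). Collagens were among the genes that differed. The 10 fibrillar and beaded collagen genes summed to 32112 CPM in Stroma5 and 9978 CPM in Stroma7, and 6 of them were higher and 0 lower, and of 12 other collagen genes 9 were higher and 0 lower. Against Stroma4, 7 of the 10 fibrillar and beaded collagen genes were higher in the untreated tumor (summed 37661 against 14929 CPM) and 1 in the progressed tumor (32112 against 20307 CPM). The median log2 ratio over all genes was 0.16 against Stroma7, and -0.09 (untreated) and -0.11 (progressed) against Stroma4. Cthrc1, Fndc1, Postn and Ptn were also higher in Stroma5 than in Stroma7, Postn (periostin) at 175 against 28.6 CPM. Stroma7 held more Apoe, the lipid carrier apolipoprotein E, at 9093 against 857 CPM, and more Spp1 (osteopontin) at 554 against 44.5 CPM. The retinoid genes parted as well. Stra6, for uptake, was 266 CPM in Stroma5 and 46.7 CPM in Stroma7, and Cyp26b1, which breaks down retinoic acid, was 15.9 and 222 CPM. These genes were likewise chosen after their values were seen.

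Between the tumors, 322 of 11703 genes were counted as higher in progressed than in untreated Stroma5 (2.75%) and 260 as lower (2.22%). In the other stroma 447 of 14613 were higher (3.06%) and 687 lower (4.7%). Of the genes assessed in both populations 85 were higher in both, 26.8% of the Stroma5 and 32.6% of the other list, and 62 were lower in both, 24.1% and 25.7%. The counts of matrix genes lay near the shares over all genes. Of the 10 fibrillar and beaded collagen genes and of the 15 assessed matrix glycoprotein genes, 0 were counted as higher or lower, and of 12 other collagen genes Col26a1 alone was lower. Of 8 collagen crosslinking genes 1 was higher and 1 lower, and of 13 matrix protease and inhibitor genes 1 was higher, Timp3, and 1 lower. Tumor, library and mouse cannot be told apart in this comparison.

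Among the markers, Ptx3 differed most between the tumors. Its level was 60.7 CPM in untreated and 400 CPM in progressed Stroma5, a log2 ratio of 2.72 (2.40 to 3.06), while the other stroma went from 44.6 to 60.2 CPM (0.43). The difference of these log2 ratios was 2.29, with a counting interval of 1.93 to 2.64. Ptx3 was not a matter of a few cells, since the 5% of progressed cells with most Ptx3 UMIs held 34.5% of them and the median cell held 1. Within single clusters Ptx3 stood at 2.33 and 14.99 CPM in Stroma4 (log2 ratio 2.69) and at 50.6 and 56.7 CPM in Stroma6 (0.16). Stra6 and Scube1 were higher in the progressed tumor by 1.24 and 1.20 on the log2 scale in Stroma5 and by 1.19 and 0.99 in the other stroma. Col26a1 fell by 1.21, and Col9a2 and Reln differed by 0.19 and 0.18, while in the other stroma Col9a2 was 2.86 and Reln 1.44 higher, where the progressed tumor held 444 Stroma7 cells and the untreated tumor 18.

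The 15 genes named as most increased, among the 62 increased genes of at least 50 CPM in either tumor, are taken in turn here. The metallothioneins Mt1 and Mt2, which bind zinc and copper, went from 140 to 484 CPM and from 67.5 to 227 CPM. The secreted growth factor Ptn (pleiotrophin) went from 34.9 to 161 CPM and the metalloproteinase inhibitor Timp3 from 307 to 923 CPM. In the other stroma the same 4 genes were higher in the progressed tumor by 1.65 to 2.197 on the log2 scale. Lbhd2 (34.9 to 263 CPM), Shisa8 (68.3 to 231 CPM), Cadm1 (5.31 to 53.7 CPM), Metrnl and Ybx1 also moved the same way in the other stroma. Of the 15 genes, 9 were counted as higher in the other stroma and 2 as lower, and within Stroma4 10 were higher and 0 lower.

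A smaller set went its own way in Stroma5. Scgb1a1, a small secreted protein best known from airway club cells, went from 8.35 to 64.2 CPM in Stroma5 and from 13.4 to 12.1 CPM in the other stroma. Sele, the adhesion molecule E-selectin, went from 25.8 to 101 CPM and from 230 to 60.4 CPM. Sele was uneven over cells, with a UMI in 73 of 754 progressed Stroma5 cells and 91.4% of its UMIs in the 5% of cells with most of them. The fall of Sele in the pooled other stroma was not seen within Stroma4, where it stood at 64.5 and 82.9 CPM, nor within Stroma6, at 65.4 and 69.9 CPM, so the clusters that make up the pool moved with it, and their part was not tested.

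**Figure D5:**
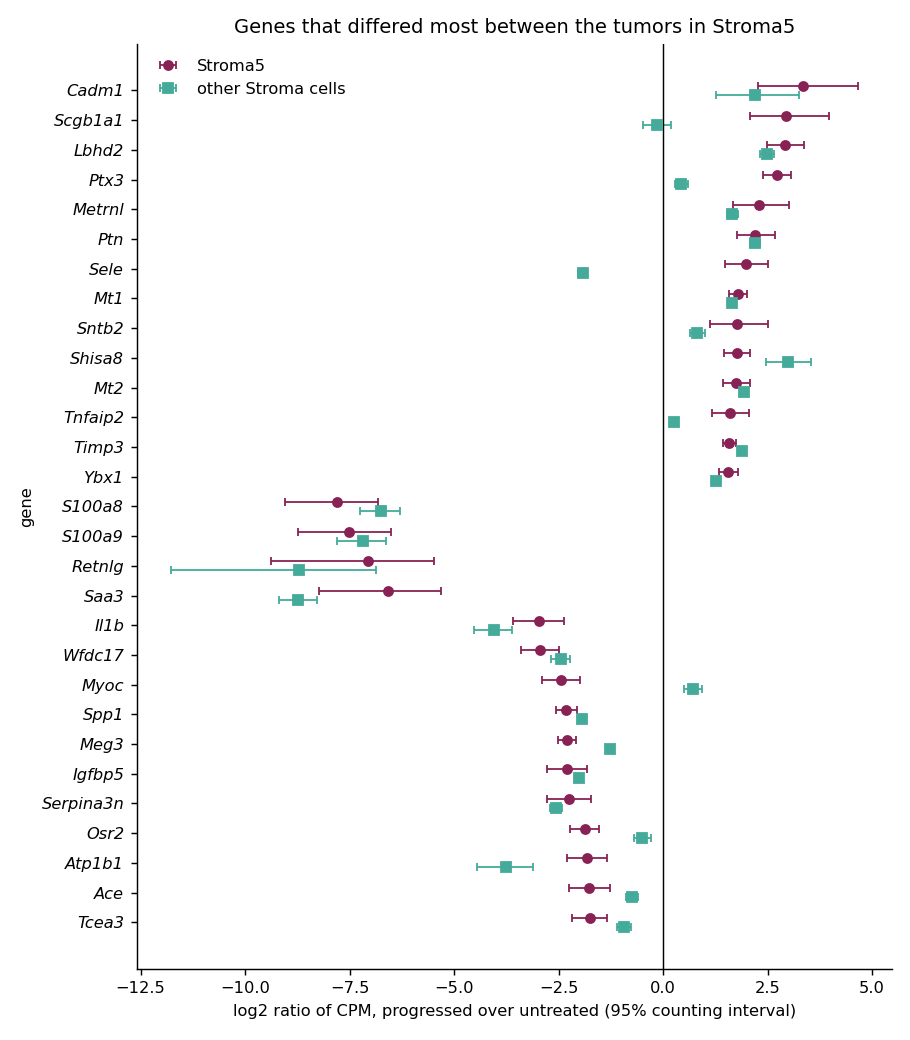
Points give the log2 ratio of CPM in the progressed over the untreated tumor (horizontal axis) for 14 of the 15 most increased and the 15 most decreased genes of Stroma5, circles for Stroma5 and squares for the other Stroma cells, with 95% counting intervals. Sele lies above 0 in Stroma5 and below 0 in the other stroma, and Myoc the other way round, while S100a8 and S100a9 lie far below 0 in both.

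The largest decreases were of neutrophil genes. S100a8 went from 326 to 1.45 CPM in Stroma5 and from 342 to 3.15 CPM in the other stroma, and S100a9 from 264 to 1.45 CPM. In the untreated tumor S100a8 was found at 128561 CPM in 391 neutrophils, at 1447 CPM in blood vessel cells and in 149 of 165 Stroma5 cells, and the progressed tumor held 4 neutrophils. Retnlg, Il1b and Wfdc17, also known from leukocytes, went from 72.8 to 0.542 CPM, from 52.4 to 6.69 CPM and from 87.3 to 11.4 CPM. The neutrophil share and these levels moved together, and the part of RNA from other cells in them was not tested.

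Other decreases lay in genes of varied roles. Saa3, an acute phase protein, went from 86.5 to 0.903 CPM in Stroma5 and from 1475 to 3.48 CPM in the other stroma. Spp1 went from 221 to 44.5 CPM, the noncoding RNA Meg3 from 291 to 58.9 CPM, and Igfbp5 from 62.2 to 12.7 CPM, each with a decrease in the other stroma too. Osr2, a zinc finger regulator, went from 103 to 28.0 CPM in Stroma5 and from 41.9 to 29.7 CPM in the other stroma. Myoc (myocilin) went from 74.4 to 13.7 CPM in Stroma5 and from 20.8 to 34.2 CPM in the other stroma, while within Stroma4 it went from 65.3 to 16.1 CPM. Of the 15 decreased genes 11 were lower in the other stroma and 13 within Stroma4, and 0 were counted as higher in either. Several untreated levels rested on few cells. The 9 of 165 cells with most UMIs of a gene held 63.4% for Spp1, 62.3% for Saa3 and 56.5% for Meg3. They held 79.3% for Igfbp5, 69.4% for Myoc and 36.0% for Osr2. A single cell held 103 of the 292 Spp1 UMIs. Untreated neutrophils held 2984 CPM of Spp1, and the part of RNA from other cells was not tested.

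Some list ratios to the other stroma came nearer to level and others moved away, and both populations enter them. The summed log2 ratio of the pentraxin and complement list went from -1.88 in the untreated to -0.89 in the progressed tumor. Its sum went from 1598 to 1946 CPM in Stroma5, where Ptx3 alone went from 60.7 to 400 CPM. In the other stroma, whose makeup changed, the sum went from 5866 to 3608 CPM. The antigen presentation ratio went from -0.74 to -1.43. Its sum went from 1193 to 1592 CPM in Stroma5 and from 1992 to 4299 CPM in the other stroma. Of 12 interferon response genes 1 was higher in progressed than in untreated Stroma5 and 4 in the other stroma, and of 9 antigen presentation genes 1 and 4. Of 17 cytokine and chemokine genes 2 were higher, one of them Ccl2, and 4 lower. In the retinoid list 3 of 11 genes were higher, Stra6, Rdh10 (which oxidizes retinol, 88.8 to 224 CPM) and Rarb (a retinoic acid receptor and target, 3.79 to 14.3 CPM), and 1 was lower, Cyp26b1 at 45.5 to 15.9 CPM. In the other stroma 3 of 15 retinoid genes were higher and 1 lower. Stra6 rose there by 1.19 on the log2 scale, against 1.24 in Stroma5, while Cyp26b1 went from 60.7 to 83.9 CPM. Bmp7 (0.21) and Trf (0.07) differed little on the log2 scale.

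UMIs of genes taken as marks of other lineages were seen in Stroma5 at low levels. A UMI of at least 1 of 8 genes of other lineages was seen in 98 of 165 untreated (59.4%) and 509 of 754 progressed cells (67.5%), against 45.2% and 47.0% of the shallower other stroma. Most came from the keratin gene Krt14 (in 35.8% and 40.2% of Stroma5 cells) and from tWPRE, a feature that the labels do not describe (30.9% and 30.0%). tWPRE stood at 51.6 and 56.0 CPM in Stroma5, at 39.1 and 35.7 CPM in the other stroma and at 2527 and 4225 CPM in tumor cells. Whether these UMIs came from other cells was not tested. Ptprc was seen in 2.42% and 1.06% of Stroma5 cells. Without every cell that held such a UMI, 95 of 96 values of at least 2-fold among the named genes stayed at least 2-fold, Scube1 between the tumors being the exception (log2 0.94).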

How the data were processed

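The authors deposited 1 table of UMI counts per tumor and a cell table with cluster names; its tumor, name and cluster columns hold labels (unit other), and its totals per cell are counts made by the authors. Per the study's methods, 10x 3' reads were aligned to GRCm38 with GSNAP, unique sense exon reads were counted, cells under 300 UMIs were left out and clusters came from Seurat 2.2.0. The annotation release is not given in the sources used here. The series text says that cells were sorted and names no gate.

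Symbols were matched by Entrez ID for 31049 of 36530 features from RefSeq. No cell ID was shared between libraries (0). The table sums exceeded the deposited UMI totals by a median of 4.3% in Stroma5 cells, for a reason not found. Counts were summed per tumor and cluster and divided by their total (CPM). Ratios have exact conditional binomial intervals, where a population without a UMI was given 3 UMIs as its upper limit, and differences of ratios have normal intervals on the log scale. Scripts were tested on simulated data. Named genes were the 6 markers, the 20 highest and 10 lowest against the other stroma (smaller of both tumors' ratios, at least 50 CPM) and the 15 most increased and decreased between tumors (at least 50 CPM in either). The members and the 41 gene lists were chosen with earlier results of these data known. Alternatives were TMM factors (edgeR 4.0.16, R 4.3.3), no count filter, equal weight per cell, thinning, leaving out the 5% of cells with most UMIs or cells with other-lineage UMIs, a 4-fold threshold and other references. No doublet caller was run. Python 3.11.15, numpy 2.4.6, scipy 1.17.1 and pandas 2.3.3 were used. Some items are not reported here.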

Additional observations from a re-analysis of the deposited data

Results flagged for a closer look

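A few genes moved in opposite directions in Stroma5 and the other stroma, each by at least 2-fold with a counting interval that left out equality. The differences were not tested beyond counting error, since each group was 1 tumor, and the makeup of the other stroma changed between the tumors. From untreated to progressed, Cxcl5, a neutrophil chemokine, changed by 1.25 on the log2 scale in Stroma5 and by -2.85 in the other stroma, Inhbb, an activin and inhibin subunit, by 1.45 and -1.15 (on 4 UMIs in untreated Stroma5), and Sele by 1.97 and -1.93. Shisa2 changed by -1.19 and 1.70 and D430041D05Rik by -1.12 and 1.27. The difference of log2 ratios was 4.10 for Cxcl5 (counting interval 3.47 to 4.74) and 3.90 for Sele (3.39 to 4.42). Within Stroma4, Cxcl5 stood at 12.0 CPM in the untreated and 18.5 CPM in the progressed tumor.

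Other genes stood on opposite sides of the other stroma in the untreated and the progressed tumor. The log2 ratio of Stroma5 over the other stroma was -1.75 and then 2.35 for Cxcl5, -2.25 and 1.27 for Hp (haptoglobin), 1.10 and -1.26 for Il20rb, and 1.83 and -1.31 for Myoc. Hp fell in both populations, from 38.7 to 5.60 CPM in Stroma5 and from 184 to 2.32 CPM in the other stroma. Nos1ap gave -2.93 and 1.25, on 1 UMI in untreated Stroma5.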

How the results depend on the processing

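No paired analysis was possible because each group was 1 tumor, and leaving out a replicate was not possible for the same reason. Relative to all cells rather than the stroma, the share of Stroma5 was 4.03% in the untreated and 15.6% in the progressed tumor. With a 4-fold threshold the genes higher and lower than in the other stroma were 135 and 412 (untreated) and 117 and 516 (progressed), and those higher and lower in progressed Stroma5 were 57 and 37. With cells thinned to 1000 UMIs, which leaves fewer counts, 405 and 716 genes were lower than in the other stroma, and 175 were higher and 146 lower in progressed Stroma5. With no count filter 405 genes were lower in progressed Stroma5. Against the highest other cluster, 92 and 46 genes were higher. The lists at least 2-fold higher between the tumors were 1, and 2 after thinning, and those lower were 2, and 1 with equal weight per cell. With a pseudocount of 1 CPM the correlation with Stroma4 in the progressed tumor was 0.938 and Stroma7 came first (0.939). Of 96 named-gene values of at least 2-fold, 96 stayed so with TMM factors, with equal weight and without the deepest cells, and 95 after thinning (Sntb2 went from 1.77 to 0.70 on the log2 scale). Across these settings 0 named-gene or list values of at least 2-fold turned direction. Genes under 20 UMIs over both groups could not be assessed, and untreated Stroma5 held 165 cells.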
